A study of Mus musculus with 2 samples.

Results

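The constitutive proteasome genes were taken as the protein-coding mouse genes whose symbol starts with Psma, Psmb, Psmc, Psmd, Psme, Psmf or Psmg and a number, without the interferon-inducible Psmb8, Psmb9, Psmb10, Psme1 and Psme2. The rule found 45 of the 27179 genes in the count table. By their known place in the particle, 8 belong to the alpha ring, 8 to the beta ring, 9 to the base and 8 to the lid, 7 are assembly chaperones and 3 are activators or regulators. The remaining 2, Psmc3ip and Psme3ip1, were matched by symbol only: Psmc3ip encodes a meiotic recombination factor and Psme3ip1 a protein that binds the activator Psme3. In all, 43 genes reached 1 CPM (counts divided by library size, scaled by TMM and multiplied by 1e6) in at least 1 library. Psma8, an alpha subunit of male germ cells, and Psmb11, the beta subunit of thymic cortical epithelium, had 0 counts in both libraries, which allows up to 3 counts, or 0.183 CPM in the Dox library and 0.176 CPM in the untreated library.

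The proteasome is the protease of the cytosol and nucleus that degrades proteins tagged with ubiquitin. Its core particle is a stack of alpha and beta rings with the proteolytic sites inside the beta rings. The regulatory particle caps the core: its base holds a ring of ATPases that unfold substrates, and its lid removes the ubiquitin chain. Chaperones bind subunits while rings are being assembled and leave the finished particle. Lymphoid cells also make inducible catalytic subunits that replace the constitutive ones and alter the peptides made for MHC class I.

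The libraries came from the mouse leukemia ALL211 (T-ALL, T-cell acute lymphoblastic leukemia; Vav-tTA;TRE-GFP-shIkaros), in which a transactivator driven in blood cells by the Vav promoter expresses a hairpin RNA against Ikaros linked to GFP, and doxycycline (Dox) shuts it off. The Dox library (n = 1) was made from GFPmid cells sorted from spleens of recipient mice given Dox for 3 days, and the untreated library (n = 1) from GFPhigh cells of untreated recipients. Both groups carry the transgenes, come from 1 leukemia and have the same batch date in the labels. The series' design names 2 mice per condition, and the sources used here do not say how they relate to the single library of each. With 1 library per condition there is no replicate check and no p-value, and treatment, gate and mouse cannot be told apart.

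The Dox library held 16484613 counts and the untreated library 16960042. Ikzf1, the gene the hairpin targets, was at 1229 CPM in the Dox library, against 120.5 CPM in the untreated library. All 10 T-cell markers reached 1 CPM in both libraries, with sums of 11163 CPM (Dox) and 9556 CPM (untreated). Macrophage markers summed to 155.9 CPM in the Dox library (10 of 12 at 1 CPM or more, 0.366 to 96.8 CPM) and to 9.55 CPM in the untreated library (3 of 12, 0 to 2.40 CPM, Cd14 at 0). Dendritic cell markers summed to 36.8 CPM in the Dox library (5 of 6, 0.672 to 10.9 CPM) and to 0.410 CPM in the untreated library (0 of 6, 0 to 0.293 CPM, with Clec9a, Siglech, Zbtb46 and Batf3 at 0). Erythroid markers summed to 60.9 and 7.32 CPM, and B-cell markers to 2.08 and 0.469 CPM, in the Dox and untreated libraries, with Pax5 at 0 in both.

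Proteasome genes were modestly and widely lower in the Dox library. Of the 43 genes at 1 CPM or more, 39 had a log2 fold (Dox over untreated) below 0, against 50.7% of the 12125 genes kept by the same filter. Their median log2 fold was -0.40, against -0.01 for all genes kept. The shift was broad and small in size: 9 of 43 (20.9%) lay at least 1.5-fold lower, close to the 24.1% of all genes kept, and 3 of 43 (6.98%) lay at least 2-fold lower, below the 13.0% of all genes kept. Among genes that reached 50 CPM in either library, 35 of 39 proteasome genes were below 0 (51.2% of 5419 genes were), 8 lay 1.5-fold or more below (22.2%) and 3 lay 2-fold or more below (10.4%), and Psme4 was the only one past either limit upward (21.2% at 1.5-fold and 10.5% at 2-fold). Only Psme4 was at least 1.5-fold higher (23.6% of all genes kept were), and it was also at least 2-fold higher (13.6%). Counts of the 45 genes made up 0.682% of the Dox library (Wilson 95% interval 0.678 to 0.686%) and 0.901% of the untreated library (0.897 to 0.906%). The intervals here and below cover counting error only. In bulk RNA, fewer cells of a type and less RNA per cell cannot be told apart.

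These genes are short, with a median length of 1434 bases, against 2716 bases for all genes kept, and log2 folds varied with gene length over the whole table. With that trend removed, 35 of 43 were below 0 (49.96% of all genes kept) and the median was -0.20. The genes with positive values after that step were Psmb1, Psmb2, Psmd4 and Psmd13, besides the 4 that were positive before it (Psme4, Psme3ip1, Psmd8 and Psmd10).

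**Figure D1:**
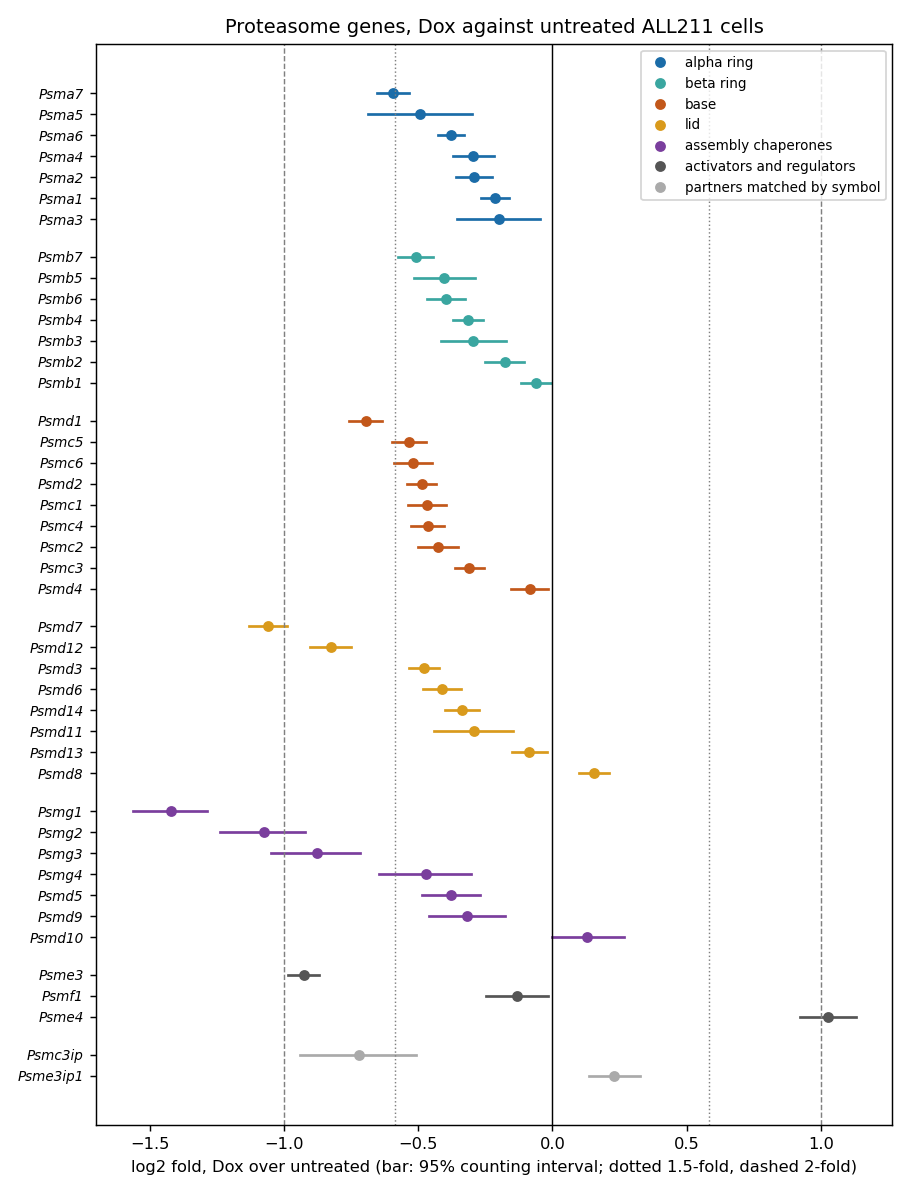
Log2 fold (Dox over untreated, x axis) of the 43 proteasome genes at 1 CPM or more, by place in the particle, with bars for the 95% counting interval and lines at 1.5-fold and 2-fold. Core subunits lie between -0.59 and -0.06, while Psmg1 (-1.42), Psmg2 (-1.08) and Psmd7 (-1.06) stand lowest and Psme4 (1.03) highest.

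**Figure D2:**
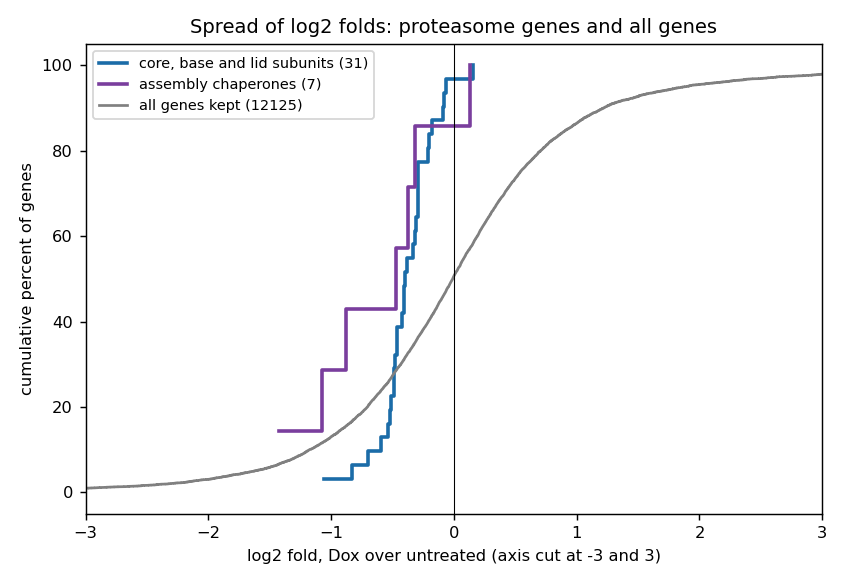
Cumulative percent of genes (y axis) by log2 fold, Dox over untreated (x axis), for 31 core, base and lid subunits, 7 assembly chaperones and all 12125 genes kept. The subunits fill a narrow range, -1.06 to 0.15 and mostly left of 0, while all genes spread about a median of -0.01.

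Promoter windows are shown for the gene with the lowest log2 fold among the core, base, lid and chaperone genes with a usable entry in the RefSeq promoter table. The windows run from 250 bases before to 50 bases after the annotated start (RefSeq, GRCm38.p6): Psma7 at chr2:180042415-180042714 (minus strand), Psmd1 at chr1:86064369-86064668 (plus strand), Psmd12 at chr11:107479278-107479577 (plus strand) and Psmg1 at chr16:95990911-95991210 (minus strand), each 5′ to 3′ along its gene. Capitals mark matches, on either strand, to CCAAT (the NF-Y box), CACGTG (the E-box bound by Myc and others) or TGACNNNGC (an antioxidant response element, bound by Nfe2l1 and Nfe2l2).
Psma7: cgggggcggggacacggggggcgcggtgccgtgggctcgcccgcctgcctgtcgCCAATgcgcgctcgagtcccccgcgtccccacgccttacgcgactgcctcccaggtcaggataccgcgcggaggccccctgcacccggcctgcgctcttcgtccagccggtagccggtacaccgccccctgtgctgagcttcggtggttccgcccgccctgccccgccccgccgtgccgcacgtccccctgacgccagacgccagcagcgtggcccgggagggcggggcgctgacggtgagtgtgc
Psmd1: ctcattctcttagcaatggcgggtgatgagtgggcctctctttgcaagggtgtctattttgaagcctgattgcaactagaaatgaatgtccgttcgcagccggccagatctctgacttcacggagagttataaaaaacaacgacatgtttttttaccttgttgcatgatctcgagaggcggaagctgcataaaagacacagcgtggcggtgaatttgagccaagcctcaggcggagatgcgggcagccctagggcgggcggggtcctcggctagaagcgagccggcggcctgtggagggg
Psmd12: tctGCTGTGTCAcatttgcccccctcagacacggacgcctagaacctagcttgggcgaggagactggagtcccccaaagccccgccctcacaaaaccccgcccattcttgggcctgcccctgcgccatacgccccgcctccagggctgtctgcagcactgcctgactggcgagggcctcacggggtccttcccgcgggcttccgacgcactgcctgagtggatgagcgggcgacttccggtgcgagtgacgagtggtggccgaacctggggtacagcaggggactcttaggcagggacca
Psmg1: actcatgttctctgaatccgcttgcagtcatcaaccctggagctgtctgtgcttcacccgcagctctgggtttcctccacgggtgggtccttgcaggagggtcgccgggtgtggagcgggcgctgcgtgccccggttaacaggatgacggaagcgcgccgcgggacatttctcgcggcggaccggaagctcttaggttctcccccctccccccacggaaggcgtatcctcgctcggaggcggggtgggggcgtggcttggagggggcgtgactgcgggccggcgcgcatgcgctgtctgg
The Psma7 window holds CCAAT starting 196 bases before the start, and the Psmd12 window holds GCTGTGTCA, the reverse strand of TGACNNNGC, starting 247 bases before it. The Psmd1 and Psmg1 windows hold none of these letters. Of 39 windows of 36 matched proteasome genes, 35.9% hold CCAAT, 10.3% CACGTG and 15.4% TGACNNNGC, against 37.4%, 7.15% and 12.4% of all 32851 windows, so that the shares lay close to those of promoters at large. Psmb1, Psmb2, Psmb7, Psmc3, Psmd3, Psmd7 and Psmg2 are missing from the table.

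In the alpha ring, the gate through which substrates enter, all 7 measured subunits had a log2 fold below 0 (50.7% of all genes kept). The median was -0.29 (-0.11 with the length trend removed). Psma7 alone was at least 1.5-fold lower (1 of 7, against 24.1% of all genes kept). Psma7 lay inside that limit with upper quartile factors (-0.57) and with the length trend removed (-0.39), which left 0 alpha ring subunits past it. Summed counts gave a ratio of Dox to untreated of 0.783 (exact Clopper-Pearson 95% interval 0.770 to 0.797). Psma7 (Entrez 26444; GRCm38 chromosome 2, 180036367 to 180042464) was the lowest, at 225.4 CPM in the Dox library and 340.3 CPM in the untreated library (3691 and 5810 counts, log2 fold -0.59, interval -0.65 to -0.53). Psma6, the most abundant of these genes per gene length, was at 365.1 CPM in the Dox library, against 474.7 CPM in the untreated library (5980 and 8103 counts, log2 fold -0.38, interval -0.43 to -0.33). Psma3 had the log2 fold nearest to 0, -0.20 (interval -0.36 to -0.04), at 38.1 CPM in the Dox library and 43.8 CPM in the untreated library (624 and 747 counts). Between them lay Psma5 (-0.49), Psma4 (-0.29), Psma2 (-0.29) and Psma1 (-0.21).

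The beta ring differed least among the parts of the particle by summed counts. Its 7 measured subunits were lower in the Dox library (50.7% of all genes kept were), 0 of them by 1.5-fold (24.1% of all genes kept). Their median log2 fold was -0.32 (-0.11 with the length trend removed). The summed ratio was 0.820 (interval 0.805 to 0.835). The 3 catalytic subunits stood lower than the 4 structural ones, with medians of -0.40 and -0.24. Psmb7, which carries the trypsin-like site, was at 195.0 CPM in the Dox library and 277.7 CPM in the untreated library (3193 and 4740 counts, log2 fold -0.51, interval -0.58 to -0.45). Psmb5, which carries the chymotrypsin-like site, was at 67.3 CPM in the Dox library and 89.0 CPM in the untreated library (1103 and 1520 counts, log2 fold -0.40, interval -0.52 to -0.29). Psmb6, which carries the caspase-like site, was at 170.7 CPM in the Dox library and 224.7 CPM in the untreated library (2795 and 3836 counts, log2 fold -0.40, interval -0.47 to -0.33). All 3 catalytic genes thus lay at similar log2 folds, and their intervals overlap. Among the structural subunits, Psmb4, at 274.4 CPM in the Dox library and 341.5 CPM in the untreated library, had a log2 fold of -0.32 (4494 and 5829 counts, interval -0.37 to -0.26), Psmb3 -0.29, Psmb2 -0.18 and Psmb1 -0.06. Psmb1, at 318.2 CPM in the Dox library and 332.0 CPM in the untreated library, had the smallest difference of the core (5211 and 5667 counts, interval -0.12 to -0.01).

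Each constitutive catalytic subunit has an inducible counterpart that takes its place in the immunoproteasome, and the balance of each pair lay further toward the inducible gene in the Dox library. Psmb8 was at 516.1 CPM in the Dox library and 449.8 CPM in the untreated library (8452 and 7678 counts, log2 fold 0.20, interval 0.15 to 0.24). Psmb9 was at 164.7 CPM in the Dox library and 130.4 CPM in the untreated library (2697 and 2226 counts, log2 fold 0.34, interval 0.26 to 0.42). Psmb10 was at 207.3 CPM in the Dox library and 145.8 CPM in the untreated library (3395 and 2489 counts, log2 fold 0.51, interval 0.43 to 0.58). Each inducible gene was thus higher where its constitutive partner was lower. By level per gene length, Psmb5 made up 15.5% of the Psmb5 and Psmb8 pair in the Dox library (interval 14.7 to 16.3%), against 21.8% in the untreated library (20.8 to 22.7%). Psmb6 made up 44.6% of its pair with Psmb9 in the Dox library (43.3 to 46.0%), against 57.3% in the untreated library (56.0 to 58.6%). Psmb7 made up 55.2% of its pair with Psmb10 in the Dox library (54.0 to 56.4%), against 71.4% in the untreated library (70.4 to 72.4%). In all 3 pairs the constitutive share was lower in the Dox library and the counting intervals do not overlap. Library scaling cancels in these shares, and with plain counts in place of levels per length they were also lower in the Dox library for each pair. The macrophage and dendritic cell markers given above, cell types that also express the inducible subunits, were higher in the same library; their part in these shares was not tested.

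**Figure D3:**
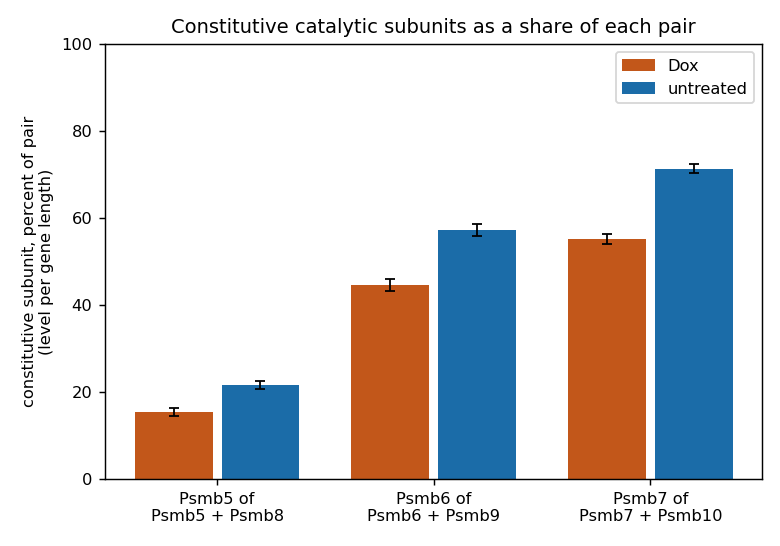
Level per gene length of each constitutive catalytic subunit as a percent of its pair with the inducible subunit (y axis), in the Dox (left) and untreated (right) library, with exact 95% intervals of counting error. Psmb5 stands at 15.5% and 21.8%, Psmb6 at 44.6% and 57.3% and Psmb7 at 55.2% and 71.4%.

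The base had the lowest summed ratio of the 4 parts of the particle, 0.734 (interval 0.723 to 0.745). All 9 of its subunits had a log2 fold below 0 (50.7% of all genes kept were). Their median was -0.47 (-0.34 with the length trend removed). The 6 ATPases, which form the unfolding ring, lay close together, between -0.53 for Psmc5 and -0.31 for Psmc3, with Psmc6 at -0.52, Psmc1 at -0.47, Psmc4 at -0.46 and Psmc2 at -0.43. Psmd1 (Entrez 70247; chromosome 1, 86064619 to 86139295), a large scaffold subunit, was the lowest of the base. It was the only subunit of the base at least 1.5-fold lower (1 of 9, against 24.1% of all genes kept). It was at 208.5 CPM in the Dox library and 337.8 CPM in the untreated library (3415 and 5767 counts, log2 fold -0.70, interval -0.76 to -0.63). Psmd2, the other scaffold subunit and the docking site of ubiquitin shuttle factors, had -0.49. Psmd4, a ubiquitin receptor, was the highest of the base at 197.2 CPM in the Dox library and 209.1 CPM in the untreated library (3230 and 3570 counts, log2 fold -0.08, interval -0.15 to -0.02).

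Of the parts of the particle, the lid had the widest range of log2 folds. Of 8, 7 had a log2 fold below 0 (50.7% of all genes kept were), and the median was -0.37 (-0.22 with the length trend removed). Psmd7 and Psmd12 lay at least 1.5-fold lower (25% of the lid, 24.1% of all genes kept). Psmd7 also lay 2-fold lower (12.5% of the lid, 13.0% of all genes kept). Both shares of the lid were close to those of all genes kept. The summed ratio was 0.764 (interval 0.752 to 0.777). Psmd7 (Entrez 17463; chromosome 8, 107580380 to 107588482), which pairs with the deubiquitinase subunit Psmd14, was at 141.4 CPM in the Dox library and 294.8 CPM in the untreated library. That was 2.08-fold lower (2316 and 5032 counts, log2 fold -1.06, interval -1.13 to -0.99). Its partner Psmd14 was at 216.8 CPM in the Dox library and 273.6 CPM in the untreated library (log2 fold -0.34, interval -0.40 to -0.27), so that the intervals of the pair do not overlap. Psmd12 (Entrez 66997), a scaffold subunit of the lid, was at 131.5 CPM in the Dox library and 233.2 CPM in the untreated library (log2 fold -0.83, interval -0.90 to -0.75). Psmd8, in yeast the last subunit to join the lid, was the only core, base or lid subunit of the symbol rule with a positive value, at 309.3 CPM in the Dox library and 277.8 CPM in the untreated library (5065 and 4743 counts, log2 fold 0.15, interval 0.10 to 0.21). The other 4 lay between -0.48 and -0.09: Psmd3 at -0.48, Psmd6 at -0.41, Psmd11 at -0.29 and Psmd13 at -0.09.

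Subunits of the particle are needed in fixed proportions, and their levels per gene length were compared within each library. Over 31 core, base and lid subunits, the median was 141.0 CPM per kilobase in the Dox library and 173.9 in the untreated library. By their mean over both libraries the most abundant were Psma6 (366.2 CPM per kilobase in the Dox and 476.1 in the untreated library), Psmb4 (289.1 in Dox and 359.8 in untreated) and Psma7 (255.8 in Dox and 386.3 in untreated). Far below the rest were Psma5 (18.7 in Dox and 26.3 in untreated), Psmd11 (23.6 in Dox and 29.0 in untreated) and Psma3 (26.6 in Dox and 30.5 in untreated). These 3 are among 8 subunits with a pseudogene transcript in GENCODE at 95% identity or more over at least 300 bases. The others are Psma4, Psmb3, Psmb5, Psmc1 and Psmd2. The sources used here do not say how reads with several alignments were counted, so levels of these 8 genes, and with them the share of Psmb5 in its pair, are uncertain. Adrm1, a subunit outside the symbol rule, stood lower than all of the 31, at 14.4 in the Dox library and 19.4 in the untreated library. It was not searched for copies. The median level of the 8 was 80.3 in the Dox library and 102.2 in the untreated library, against 157.5 and 207.9 for the other 23. Among those 23, levels spanned 5.72-fold in the Dox library and 4.59-fold in the untreated library. The 7 lid subunits among them spanned 76.3 to 204.4 in the Dox library, a 2.68-fold range, but 135.3 to 184.2 in the untreated library, a 1.36-fold range. In the Dox library Psmd12 and Psmd7 stood at the bottom of that range and Psmd8 at the top. Sem1, a lid subunit outside the symbol rule, is not among the 31, so these lid ranges leave it out. It was at 489.5 CPM per kilobase in the Dox library and 562.3 in the untreated library, above all of the 31 in both. It was not searched for copies.

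**Figure D4:**
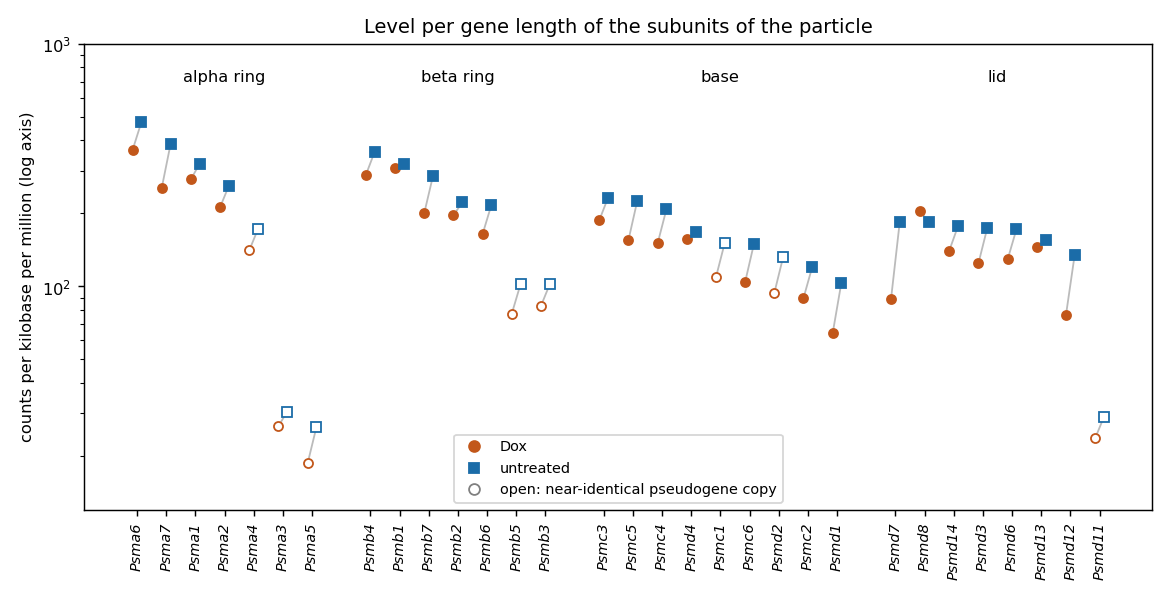
CPM per kilobase of gene length (log axis) of the 31 core, base and lid subunits in the Dox (circles) and untreated (squares) library, with open symbols for 8 genes that have a near-identical pseudogene copy. The open symbols of Psma3, Psma5 and Psmd11 lie lowest. With Psmd11 left aside, the lid subunits shown lie close together in the untreated library but spread from 76.3 to 204.4 in the Dox library. The lid subunit Sem1, outside the symbol rule, is not shown.

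Psmg1 and Psmg2, chaperones of the core, had the lowest log2 folds of all 43 genes, and core chaperones as a group stood lower than those of the base. The 7 genes had a median log2 fold of -0.47 (-0.32 with the length trend removed) and a summed ratio of 0.658 (interval 0.635 to 0.682). Psmg1, Psmg2 and Psmg3 lay at least 1.5-fold lower (3 of 7, against 24.1% of all genes kept). Psmg1 and Psmg2 also lay 2-fold lower (2 of 7, against 13.0%). For the 4 core chaperones, Psmg1 to Psmg4, the summed ratio was 0.489 (interval 0.463 to 0.516), against 0.861 (0.819 to 0.904) for the 3 chaperones of the base, Psmd5, Psmd9 and Psmd10. The median gene lengths of the 2 groups were 912 and 2042 bases. With the length trend removed, Psmg4 (-0.20) lay above Psmd5 (-0.32) and Psmd9 (-0.30). Psmg1 (-1.22), Psmg2 (-0.89) and Psmg3 (-0.66) stayed below all 3 chaperones of the base. Psmg1 (Entrez 56088; chromosome 16, 95979933 to 95990960) was at 35.4 CPM in the Dox library and 94.9 CPM in the untreated library. That was 2.68-fold lower (579 and 1620 counts, log2 fold -1.42, interval -1.56 to -1.29). Psmg2, which forms a dimer with Psmg1 that starts alpha ring assembly, was at 28.8 CPM in the Dox library and 60.9 CPM in the untreated library (472 and 1039 counts, 2.11-fold lower, log2 fold -1.08, interval -1.24 to -0.92). That interval overlaps the one of Psmd7, so the rank of Psmg2 is not settled. With the length trend removed, Psmd7 (-0.94) and Psme3 (-0.91) lay below Psmg2 (-0.89). Psmg3 and Psmg4 form the other dimer of alpha ring assembly. Psmg3 was at 28.2 CPM in the Dox library and 52.0 CPM in the untreated library (log2 fold -0.88, interval -1.05 to -0.72). Psmg4 was at 28.6 CPM in the Dox library and 39.8 CPM in the untreated library (-0.47, interval -0.65 to -0.30). Within each dimer 1 partner thus had the lower log2 fold, and for Psmg1 with Psmg2 and for Psmg3 with Psmg4 the intervals do not overlap. The chaperones that bind ATPases while the base forms had log2 folds of -0.38 (Psmd5), -0.32 (Psmd9) and 0.13 (Psmd10, also known as gankyrin). Psmd10 was at 57.2 CPM in the Dox library and 52.3 CPM in the untreated library (937 and 892 counts), and the interval of its ratio, 0.998 to 1.20, includes 1. Pomp, the chaperone of beta ring assembly, does not fall under the symbol rule and was at 168.3 CPM in the Dox library and 182.0 CPM in the untreated library (log2 fold -0.11).

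The activators of the core differed in opposite directions. Psme3 (Entrez 19192; chromosome 11, 101316213 to 101323537), a nuclear activator that works without ATP, was at 217.8 CPM in the Dox library and 414.2 CPM in the untreated library (3567 and 7070 counts, log2 fold -0.93, interval -0.99 to -0.87). Psme4 (Entrez 103554; chromosome 11, 30771775 to 30881150), the large activator also called PA200, was at 134.5 CPM in the Dox library and 66.0 CPM in the untreated library. That was 2.04-fold higher (2203 and 1127 counts, log2 fold 1.03, interval 0.92 to 1.13). By level per gene length, Psme3 exceeded Psme4 by 3.98-fold in the Dox library and by 15.4-fold in the untreated library. Psmf1, which inhibits the core in vitro, had a log2 fold of -0.13 (interval -0.25 to -0.02). Of the inducible activator pair, Psme1 was at 266.8 CPM in the Dox library and 172.6 CPM in the untreated library (log2 fold 0.63), while Psme2, with 173 counts in the Dox library and 180 in the untreated library, had 0.00. Per kilobase, Psme2 was at 10.8 CPM in each library, against 273.0 (Dox) and 176.6 (untreated) for Psme1. The search for near-identical copies covered pseudogenes only and found 0 for Psme2. Copies among protein-coding genes were not searched for Psme2 or any other gene, so its level and log2 fold stay uncertain. Of the 2 genes matched by symbol only, Psmc3ip was at 17.2 CPM in the Dox library and 28.4 CPM in the untreated library (282 and 485 counts, log2 fold -0.72, interval -0.94 to -0.51). Psme3ip1 was at 116.6 CPM in the Dox library and 99.4 CPM in the untreated library (1910 and 1696 counts, log2 fold 0.23, interval 0.14 to 0.33).

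**Figure D5:**
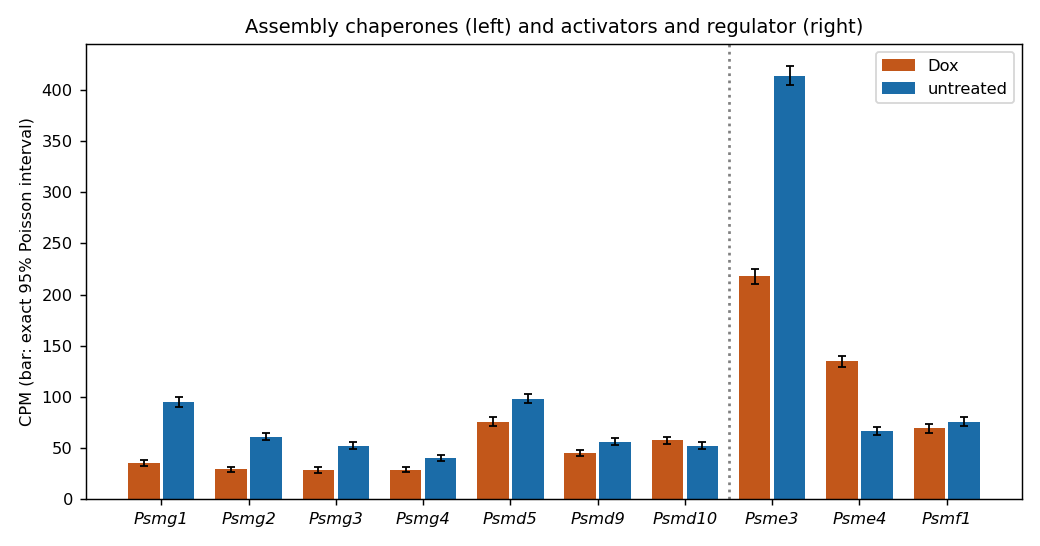
CPM of 7 assembly chaperones (left of the dotted line) and of Psme3, Psme4 and Psmf1 (right), in the Dox (left bars) and untreated (right bars) library, with exact 95% Poisson intervals. Psmg1 stands at 35.4 and 94.9 CPM and Psme3 at 217.8 and 414.2 CPM, while Psme4 stands higher in the Dox library, at 134.5 against 66.0 CPM.

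Other genes of the pathway were also more often lower than higher in the Dox library. Of 29 listed genes at 1 CPM or more outside the symbol rule and the inducible subunits, the median log2 fold was -0.20 and 21 were below 0 (50.7% of all genes kept were). At least 1.5-fold lower were 9 of 29 (24.1% of all genes kept), of which 3 by 2-fold or more (13.0%), and 0 were 1.5-fold higher (23.6%). Both deubiquitinases that bind the regulatory particle were at least 2-fold lower. Uchl5 was at 92.3 CPM in the Dox library and 196.7 CPM in the untreated library (log2 fold -1.09), and Usp14 at 79.7 CPM in the Dox library and 160.7 CPM in the untreated library (-1.01). The ubiquitin receptor Adrm1, which binds Uchl5, had -0.43, and the lid subunit Sem1 -0.20. Among 12 shuttle and unfolding factors, 8 were below 0 and 4 above. At least 1.5-fold lower were 4 of 12, against 24.1% of all genes kept, including the ubiquitin shuttle genes Rad23b (-0.90) and Ubqln4 (-0.86) and the proteasome-bound thioredoxin gene Txnl1 (-0.81). The 4 above 0 were Zfand2b (0.55) and Zfand2a (0.46), which encode zinc finger proteins, Ufd1 (0.18), a cofactor of the unfoldase Vcp, and Vcp itself (0.04). Nfe2l1, a transcription factor that drives proteasome genes when the proteasome is inhibited, was at 68.1 CPM in the Dox library and 67.6 CPM in the untreated library (log2 fold 0.01, interval of the ratio 0.928 to 1.10). Nfe2l2, its relative, had -0.03. Ddi2, the protease that cleaves Nfe2l1, had -0.69, and Ngly1, which removes its sugars, 0.49. The third gene at least 2-fold lower was Rps27a, which encodes ubiquitin fused to a ribosomal protein, at 23.8 CPM in the Dox library and 59.2 CPM in the untreated library (log2 fold -1.31). Ubiquitin and ribosomal protein genes have many processed copies, so its level is uncertain.

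Strand was not stated for the counting, so reads of overlapping genes cannot be told apart. In GENCODE, exons of another gene on the opposite strand cover 25.5% of the exon bases of Psmd9, 21.2% of Psmc3ip, 14.7% of Psmb8, 11.8% of Psmb7 and 10.1% of Psmd13, and 8.2% or less of other proteasome genes. On the same strand, exons of another gene cover 12.1% of the exon bases of Psmb5 (Mir686), 9.7% of Psmg3 (Gm26938) and 4.1% of Psmd1 (Gm21972). A strand setting would not separate these.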

How the data were processed

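RNA sequencing libraries of sorted leukemia cells were compared, 1 per condition. The authors deposited raw counts of reads for each Entrez gene, with a gene length. The tools named in the submitters' processing notes are CASAVA 1.8.2 and featureCounts, with the build mm10. Aligner, strand setting, annotation and treatment of multiply aligned reads: not given in the sources used here. Across genes, the table of the series held the same counts as the sample tables, and 0 columns were left unassigned. Symbols came from RefSeq (GRCm38.p6) and GENCODE for 25293 of 27179 genes.

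Counts were scaled with edgeR 4.0.16 TMM factors (0.994 for Dox and 1.01 for untreated) in R 4.3.3. A log2 fold is log2 CPM in Dox minus that in untreated, computed by adding a prior count of 2, which CPM, ratios and levels per length do not contain. The filter kept a gene that reached 1 CPM in either library. Ratios have exact conditional binomial 95% intervals for counting error only, and depth sets their width. For the proteasome genes kept, the interval on the log2 scale reached 0.05 to 0.22 to either side. Shares of the library have Wilson intervals. PCR copies are not independent molecules. No test between conditions was possible.

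The genes, lists and limits of 1.5-fold and 2-fold were chosen with earlier results of these data known. Genes named in full were the lowest and highest of each role, the catalytic subunits, those at least 2-fold different and the 3 most abundant per length. Promoters were taken for the lowest gene of each role with an entry, leaving out chromosome 18. Of the other pathway genes, those at least 2-fold different, Nfe2l1 and Nfe2l2 were named by rule, and Sem1, Pomp, Adrm1, Vcp, Ufd1, Zfand2a, Zfand2b, Ddi2, Ngly1, Txnl1, Ubqln4 and Rad23b after their values were seen. Values of some single listed genes are not reported here. Pseudogene copies were found with blastn 2.17.0. Alternatives were other scalings (total counts, DESeq2 1.42.0 size factors, upper quartile), prior counts, filters, totals, thinning, removal of a lowess trend with length and leaving out genes with copies. Removal of a GC trend, a filter of 50 CPM and leaving out Psmc3ip and Psme3ip1 were chosen after seeing the data. The software was Python 3.11.15, scipy 1.17.1 and statsmodels 0.14.6, with the interval code tested on simulated data.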

Additional observations from a re-analysis of the deposited data

How the results depend on the processing

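No paired analysis was possible because each condition has 1 library, and for the same reason no replicate could be left out. Over 14 alternatives, the proteasome genes below 0 were 39 of 43, except 35 of 43 with the length trend removed, 35 of 39 at 50 CPM, 38 of 41 without Psmc3ip and Psme3ip1 and 31 of 35 without genes with copies, and the number at least 1.5-fold lower was 7 to 9. Removal of the length trend moved most. It left 1 gene at least 2-fold lower (Psmg1, -1.22) and 0 at least 2-fold higher, with Psmd7 at -0.94, Psmg2 at -0.89 and Psme4 at 0.88, and moved the median of all to -0.20, of the alpha ring to -0.11, beta ring -0.11, base -0.34, lid -0.22 and chaperones -0.32. The filter of 50 CPM gave a chaperone median of -0.63, with 6 genes left. Summed ratios with upper quartile factors were 0.798 (alpha ring), 0.836 (beta ring), 0.748 (base) and 0.779 (lid), and 0.723 for the base with DESeq2 size factors. Without mitochondrial, ribosomal protein and haemoglobin genes in the totals, the proteasome took 0.722% of the Dox and 0.953% of the untreated library. By plain counts, Psmb5 took 11.5% (Dox) and 16.5% (untreated) of its pair, Psmb6 50.9% and 63.3%, and Psmb7 48.5% and 65.6%. Of 43 single genes, 31 moved by more than their counting interval's half-width with the length trend removed, and 0 under the other scalings, prior counts, thinning or GC trend (filters leave single folds as they are). Psma7 was no longer 1.5-fold lower with upper quartile factors or without the length trend, and Psmc3ip also not without that trend (-0.52). Psmb1, Psmb2, Psmd4 and Psmd13, all under 1.5-fold, turned positive with the length trend removed. The cause was not tested.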
